A study of Rattus norvegicus with 8 samples.

Results

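Iron reaches a cell on transferrin, is taken up, reduced, stored or exported, and the genes below carry out these steps. They were read from the deposited gene table by symbol: Tf, Tfrc, Tfr2, Fth1, Ftl1, Slc40a1, Slc11a1, Slc11a2, Steap3 and Slc25a37. Of these 10 genes, 9 had an entry among the 19120 genes of the table, each at 1 locus, and Ftl1, the ferritin light chain, was not analysed here. To them were added the circular RNAs whose host gene is Tf, 31 of 774 (4.01%). A circular RNA (circRNA) is a transcript in which a downstream splice donor is joined to an upstream acceptor, so that the molecule has no free ends.

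The study profiled bone around titanium root-form implants in male Wistar rats of 12 to 13 weeks, with the implants in the shafts of both femora. A normal group ate a normal diet and a hyperlipidemic group a high-fat diet for 8 weeks, and both carried implants. Bone within 1 mm of the implant was taken at 10 days and 3 ug of total RNA was depleted of ribosomal RNA and sequenced in strand-specific libraries, 4 per group. No group without an implant was among the samples, and the labels do not say whether a library is 1 animal or a pool, so p-values cover the spread among the 8 libraries and no more. The model is a diet given to outbred rats. The hyperlipidemia is the label's and no lipid measurement was used here.

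Transferrin is the plasma protein that binds ferric iron, and liver is its main source in the body. Tfrc, the transferrin receptor, takes up iron-loaded transferrin, and red cell precursors, which make hemoglobin in the marrow, carry it at very high levels. Messenger RNAs of several of these proteins hold an iron-responsive element, a hairpin bound by iron regulatory proteins when cells are short of iron, which blocks translation of the ferritins and stabilises the message of Tfrc.

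Upstream sequences are shown for Tf, whose gene gave the circles, and for Tfrc, Tfr2 and Slc40a1, which had among the largest differences between groups. They are the 250 bases before the annotated start, 5′ to 3′ on the gene's strand, from RefSeq in build GRCr8, which is not the build of the deposited tables (Rnor_6.0). Capitals mark 4 words, searched on both strands and not overlapping each other in these windows. The word of a TATA box is TATAA. The word CCAAT, read from the opposite strand, appears as ATTGG. The word ACGTG is the core of a hypoxia-response element. The last word, GATAA, is a core bound by GATA factors. The windows are chr8:112695377-112695626 for Tf, chr11:81690319-81690568 for Tfrc, chr12:24761369-24761618 for Tfr2 and chr9:55543461-55543710 for Slc40a1, all on the minus strand.
Tf: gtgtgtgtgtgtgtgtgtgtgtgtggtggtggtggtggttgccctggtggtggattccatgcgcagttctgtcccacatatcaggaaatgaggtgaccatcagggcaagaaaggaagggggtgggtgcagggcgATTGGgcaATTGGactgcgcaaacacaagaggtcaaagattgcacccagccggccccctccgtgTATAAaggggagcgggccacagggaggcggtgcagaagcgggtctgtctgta
Tfrc: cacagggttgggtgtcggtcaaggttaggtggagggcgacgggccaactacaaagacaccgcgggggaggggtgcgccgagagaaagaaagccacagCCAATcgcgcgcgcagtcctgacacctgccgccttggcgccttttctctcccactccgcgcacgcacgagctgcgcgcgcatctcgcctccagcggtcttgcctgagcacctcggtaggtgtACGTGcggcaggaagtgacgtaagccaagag
Tfr2: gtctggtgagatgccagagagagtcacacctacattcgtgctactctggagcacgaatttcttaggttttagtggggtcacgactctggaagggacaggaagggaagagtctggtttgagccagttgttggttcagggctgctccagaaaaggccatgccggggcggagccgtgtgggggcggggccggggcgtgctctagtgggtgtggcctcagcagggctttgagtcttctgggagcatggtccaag
Slc40a1: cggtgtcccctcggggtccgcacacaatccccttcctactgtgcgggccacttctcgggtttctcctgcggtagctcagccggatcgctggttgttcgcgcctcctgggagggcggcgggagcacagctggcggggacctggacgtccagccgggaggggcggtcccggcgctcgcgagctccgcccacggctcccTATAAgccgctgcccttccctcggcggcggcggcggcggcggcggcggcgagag

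No searched word was common to all 4 windows. The Tf window held TATAA 52 bases before the start, and CCAAT on the opposite strand at 108 and 116 bases. The Slc40a1 window held TATAA at 54 bases, the Tfrc window ACGTG at 31 and CCAAT at 153 bases, and the Tfr2 window none of the 4 words. Of all 33469 rat promoters of the same length, 24.0% held TATAA, 34.0% CCAAT, 16.6% ACGTG and 23.5% GATAA. Of the 10 genes, 6 had such a sequence; among the others with one, Steap3 held GATAA at 92 bases and Slc11a2, with 2 starts listed, CCAAT at 34 and 222 bases of one of them. These matches describe letters, not binding.

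Levels are given as FPKM, fragments scaled to transcript length and to library size, so they can be set side by side between genes. Fold changes between groups are ratios of mean FPKM, and log2 changes are differences in mean log2(FPKM + 1), hyperlipidemic minus normal, from limma over the 13742 genes that averaged 0.5 FPKM or more. A gene was called changed at a Benjamini-Hochberg adjusted p under 0.05 over all of these. The median log2 change of all genes was 0.18, and 65.0% of genes lay above 0, so a small positive value is what most genes showed. In libraries of whole tissue, fewer cells of a type and less RNA per cell cannot be told apart.

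None of the 9 iron genes was called higher and none lower, against 0.146% and 1.24% of all genes (20 and 171 genes, 1.39% in either direction). Their log2 changes were above 0 for 7 and below 0 for 2, with a median of 0.24, whereas 5 lay above 0 under median-of-ratios scaling and 6 under quantile normalization, and limma's adjusted p-values ran from 0.260 to 0.978. Before adjustment 4 had a p under 0.05, all of them with higher means in the hyperlipidemic group, as did 8.61% of all genes. These 4 were the receptors Tfrc and Tfr2, the exporter Slc40a1 and the mitochondrial importer Slc25a37, with means 1.78 to 1.92 times those of the normal group. Tf, Slc11a1, Slc11a2 and Steap3 had means that differed by less than the spread within groups.

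**Figure D1:**
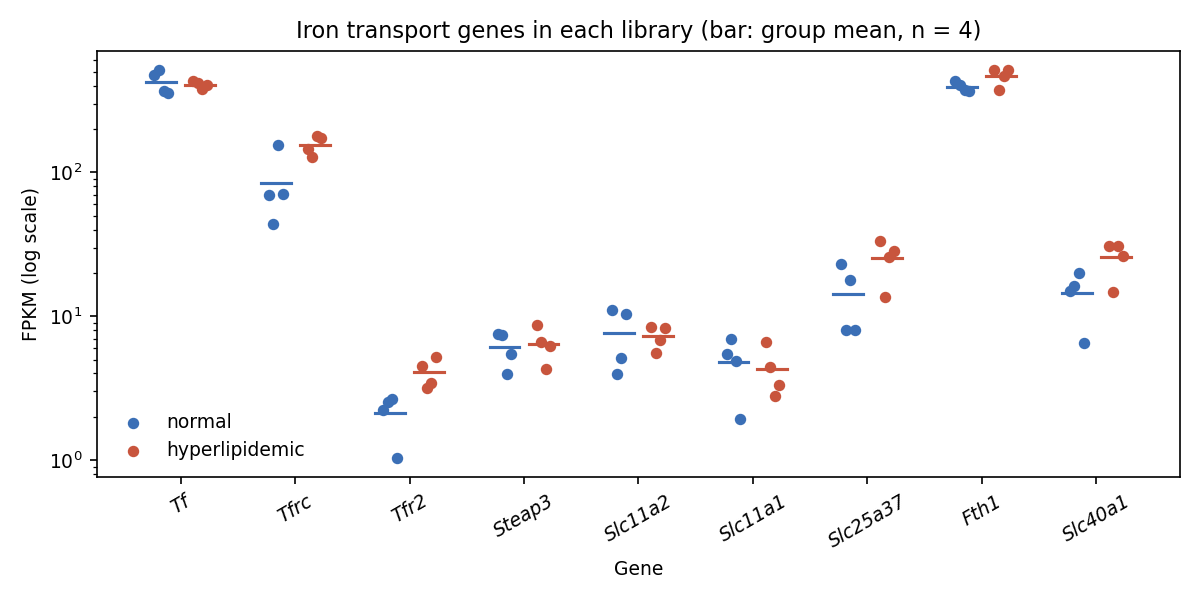
FPKM of the 9 iron genes in each library on a log axis, with normal libraries in blue, hyperlipidemic libraries in red and bars at the group means (n = 4). Tf and Fth1 lie near 400, Tfrc between 44.0 and 178, and only the Tfr2 points of the groups are fully apart.

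Tf and Fth1 were the most abundant of the 9 genes, with overlapping ranges, and Tfrc came next, below both in every library. Slc40a1 and Slc25a37 followed, then Slc11a2, Steap3, Slc11a1 and Tfr2, and within this lower run the ranges of neighbours overlapped. Tf encodes the carrier itself, and its locus spans chr8:111673547-111721333 in Rnor_6.0. Its FPKM were 476, 510, 366 and 354 in normal libraries 1 to 4 and 429, 416, 382 and 402 in hyperlipidemic libraries 1 to 4. The hyperlipidemic values all fell inside the normal range, and their spread was smaller (407 ± 20.2 against 426 ± 78.4, SD, n = 4). The log2 change was -0.05 (SE 0.21, 95% interval -0.52 to 0.42, limma adjusted p = 0.932), and quantile normalization turned its sign to 0.12. Hepatocyte markers were at or near 0 beside these levels of Tf: of 11 listed, 4 had an entry, none passed the filter on low values, and their summed FPKM did not exceed 0.581, with Alb, the serum albumin gene, listed at 0 in 7 libraries. Myelinating glia, another known source of transferrin, had 6 markers with an entry, whose sum was 6.53 to 11.3 FPKM in normal and 7.29 to 15.2 FPKM in hyperlipidemic libraries, with Sox10 under the filter.

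The receptor Tfrc (chr11:71397383-71419223) brings transferrin into the cell. It was at 69.6, 44.0, 154 and 71.1 FPKM in normal libraries and at 145, 128, 178 and 173 FPKM in hyperlipidemic ones. Normal replicate 3 lay among the hyperlipidemic libraries, and the other 3 normal libraries lay below all of them. Means were 84.6 ± 47.7 and 156 ± 23.5 FPKM, a ratio of 1.84, with a log2 change of 1.01 (SE 0.34, 95% interval 0.27 to 1.76). This did not pass the test over all genes (limma adjusted p = 0.260). Without normal replicate 3 it did, at a log2 change of 1.35 and an adjusted p of 0.0266, and the adjusted p over all 8 omissions of a library ran from 0.0266 to 0.566.

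Tfr2 (chr12:22177382-22194299), the receptor homologue that senses transferrin saturation in liver and red cell precursors, was far less abundant than Tfrc. Its FPKM were 2.23, 2.55, 2.66 and 1.04 in normal and 4.48, 3.17, 3.43 and 5.24 in hyperlipidemic libraries. Every hyperlipidemic library exceeded every normal one, which held for 1 of the 9 genes and, in this direction, for 4.19% of all genes. Means were 2.12 ± 0.744 and 4.08 ± 0.960, a ratio of 1.92, with a log2 change of 0.72 (SE 0.30, 95% interval 0.06 to 1.38, limma adjusted p = 0.347). The ratio of Tfrc to Tfr2 did not differ beyond the spread between libraries, with a log2 difference of 0.29 (two-sided exact permutation test over 70 assignments of the libraries, p = 0.571), and it changed sign without normal replicate 2 (-0.043).

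Inside the endosome Steap3 reduces the iron that transferrin releases and Slc11a2 (DMT1) moves it into the cytosol. Steap3 (chr13:36257112-36290531) was at 7.55, 7.41, 3.95 and 5.50 FPKM in normal and 8.70, 6.63, 4.32 and 6.16 FPKM in hyperlipidemic libraries. Slc11a2 (chr7:142025815-142063212) was at 11.0, 3.95, 5.15 and 10.3 FPKM in normal and 8.35, 5.56, 6.88 and 8.23 FPKM in hyperlipidemic libraries. The groups overlapped for both genes, and the largest Slc11a2 differences lay within the normal group, where replicates 1 and 4 stood above replicates 2 and 3. The log2 changes were 0.07 (SE 0.28) and 0.03 (SE 0.33), with limma adjusted p-values of 0.928 and 0.978, and median-of-ratios scaling turned them to -0.076 and -0.13. For Slc11a2 the mean FPKM was lower in the hyperlipidemic group (7.26 against 7.61, a ratio of 0.953), so its direction depended on the measure.

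Slc11a1 (NRAMP1, chr9:81655629-81666706) is the related transporter of phagosomes in macrophages and neutrophils. It was at 5.48, 6.99, 4.89 and 1.92 FPKM in normal and 6.65, 4.42, 2.78 and 3.35 FPKM in hyperlipidemic libraries, so the groups overlapped. Its log2 change was -0.10 (SE 0.37, limma adjusted p = 0.925) and its sign turned when some single libraries were left out (-0.40 to 0.088). Summed FPKM of 9 macrophage markers were 158 to 233 in normal and 163 to 238 in hyperlipidemic libraries. Those of 9 neutrophil markers were 9470 to 11833 and 9454 to 12301, so neither sum separated the groups. By gene, 4 macrophage markers had log2 changes above 0 and 5 below, and 2 neutrophil markers above and 7 below (median -0.18). Under quantile normalization 6 neutrophil markers lay above 0 and 3 below. None of either list was called.

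Slc25a37 (mitoferrin 1, chr15:51128268-51168384) carries iron into mitochondria and serves heme synthesis in red cell precursors. Its FPKM were 23.1, 8.07, 17.7 and 8.02 in normal and 33.5, 13.7, 25.6 and 28.5 in hyperlipidemic libraries. Hyperlipidemic replicate 2 was the low one of its group and lay below normal replicates 1 and 3, while the other 3 hyperlipidemic libraries exceeded all normal ones. Means were 14.2 ± 7.47 and 25.3 ± 8.42, a ratio of 1.78, with a log2 change of 0.86 (SE 0.39, limma adjusted p = 0.383).

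Fth1, the ferritin heavy chain that oxidises iron for storage (chr1:226030938-226033228), was at 432, 403, 371 and 366 FPKM in normal and 513, 371, 469 and 511 FPKM in hyperlipidemic libraries. Hyperlipidemic replicate 2 again sat with the normal libraries and the other 3 above them. The log2 change was 0.24 (SE 0.21, limma adjusted p = 0.619), close to the median of all genes. Ferritin heavy chain genes have processed copies elsewhere in the genome, and the sources used here do not say how reads shared with them were assigned.

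Slc40a1 (ferroportin, chr9:52894365-52912293) is the exporter through which macrophages return iron to plasma. It was at 14.9, 16.2, 19.9 and 6.55 FPKM in normal and 30.8, 14.8, 30.7 and 26.3 FPKM in hyperlipidemic libraries. Hyperlipidemic replicates 1, 3 and 4 lay above all normal libraries, hyperlipidemic replicate 2 lay among them, and normal replicate 4 was the lowest of all. The ratio of means was 1.78 and the log2 change 0.83 (SE 0.35, 95% interval 0.05 to 1.61, limma adjusted p = 0.353).

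Across the family, normal replicate 4 held the lowest value for 6 genes and hyperlipidemic replicate 1 the highest for 4. The same libraries had the lowest and highest median-of-ratios scaling factors over genes above 0 in all libraries (0.824 and 1.18). Hyperlipidemic replicate 2 had the lowest factor of its group (0.938). This order is therefore not particular to the iron genes, and the part of library scaling in it was not tested. Red cell precursors were followed by the summed FPKM of 14 erythroid markers such as Klf1 and Hemgn, which was 2179, 1026, 1466 and 1330 in normal and 1838, 1248, 2311 and 2287 in hyperlipidemic libraries. All 14 had log2 changes above 0 under each scaling, with a median of 0.55, and none was called. Hyperlipidemic replicate 2 was lowest of its group in this sum as in Tfrc, Slc25a37, Slc40a1 and Fth1, but normal replicate 1 had the third highest sum and a low Tfrc. The part of erythroid cells in these differences was not tested. The genes whose log2(FPKM + 1) ran most like that of Tfrc over the 8 libraries, among 5752 genes averaging 5 FPKM or more, included Zfand5 (Pearson r = 0.970), Cpox (0.948), an enzyme of heme synthesis, Jak2 (0.933), the kinase of the erythropoietin receptor, and Dennd4a (0.930). For Tf they were Qsox1 (0.975), Cherp (0.974), Emp3 (0.969), Cpne2 (0.964) and Ass1 (0.962). These values describe 8 points that share 2 groups and their library scaling.

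The markers of the bone itself were present at high levels. Summed FPKM of 11 bone cell markers such as Col1a1 and Bglap were 2712 to 4339 in normal and 1331 to 2268 in hyperlipidemic libraries, and those of the osteoclast markers 345 to 624 and 156 to 319. Adipocyte markers summed to 45.2 to 106 and 113 to 399, and skeletal muscle markers to 0.193 to 21.8 and 1.85 to 80.7. The first 3 of these sums did not overlap between groups, and their part in the iron genes' values was not tested. The members of each list did not all go 1 way. Of the tested bone cell markers 9 had log2 changes below 0 and 2 above, and of the osteoclast markers 7 below and 1 above. Adipocyte markers had 8 above 0 and 1, Pparg, below, and skeletal muscle markers 6 above and 1 below.

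The wider iron pathway was read from 5 lists with 54 genes in all, of which 40 were tested. None was called in either direction, 34 had log2 changes above 0 and 6 below (31 and 9 under either of the other scalings), and the median was 0.42. Before adjustment 10 had a p under 0.05, all higher in the hyperlipidemic group, against 8.61% of all genes tested. In 4, also higher, the groups did not overlap, against 4.19% of all genes. The lowest limma adjusted p was 0.220.

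All 12 tested genes of mitochondrial iron use had log2 changes above 0 (median 0.59), except that Slc25a28, mitoferrin 2, turned below 0 under both other scalings. Abcb10, a mitochondrial transporter of red cell precursors, was at 7.47, 10.0, 13.2 and 4.34 FPKM in normal and 16.3, 13.5, 22.7 and 20.7 in hyperlipidemic libraries. Its groups did not overlap, at a log2 change of 1.05 (SE 0.32, limma adjusted p = 0.220). Fech, which inserts iron into protoporphyrin to form heme, had a log2 change of 0.65 (SE 0.23), with means of 65.9 ± 12.9 and 104 ± 22.0 FPKM.

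The 9 tested genes of heme uptake and recycling also all had log2 changes above 0 (median 0.36), with Hp below 0 under median-of-ratios scaling and Flvcr2 under quantile normalization. Cd163, the macrophage receptor for hemoglobin bound to haptoglobin, had means of 6.80 ± 2.50 and 16.1 ± 5.99 FPKM and a log2 change of 1.11 (SE 0.34, limma adjusted p = 0.220). Abcg2, a transporter that can export porphyrins, had means of 1.76 ± 0.849 and 3.86 ± 0.780 FPKM, with no overlap of the groups and a log2 change of 0.86 (SE 0.31). Of the ferroxidases, Heph had a log2 change of 0.90 (SE 0.42), with normal replicate 1 listed at 0, and Cp, ceruloplasmin, one of 0.55 (SE 0.29).

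Among 8 tested genes of iron sensing, 5 lay above 0 and 3 below (median 0.18), or 4 and 4 under quantile normalization. Fam132b encodes erythroferrone, the signal from red cell precursors that lowers hepcidin in liver, and was listed at 0, 1.09, 0.863 and 0 FPKM in normal and 2.36, 1.22, 2.57 and 2.11 FPKM in hyperlipidemic libraries. All hyperlipidemic libraries exceeded all normal ones, at a log2 change of 1.10 (SE 0.36, limma adjusted p = 0.259). Ncoa4, the receptor that delivers ferritin to lysosomes, had means of 97.6 ± 15.6 and 153 ± 42.5 FPKM and a log2 change of 0.61 (SE 0.25). Hamp, the gene of hepcidin, was under the filter and above 0 in 1 library.

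Uptake and reduction held 6 tested genes above 0 and 3 below (median 0.25), or 5 and 4 under median-of-ratios scaling. Lcn2, a neutrophil protein that binds iron-carrying siderophores, was at 1287, 797, 339 and 440 FPKM in normal and 362, 388, 370 and 341 FPKM in hyperlipidemic libraries. Normal replicates 1, 2 and 4 stood above and replicate 3 just below the narrow hyperlipidemic range, and the log2 change was -0.78 (SE 0.38, limma adjusted p = 0.415). Exoc6, an exocyst subunit needed for transferrin recycling in mouse red cell precursors, had a log2 change of 0.43 (SE 0.24).

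**Figure D2:**
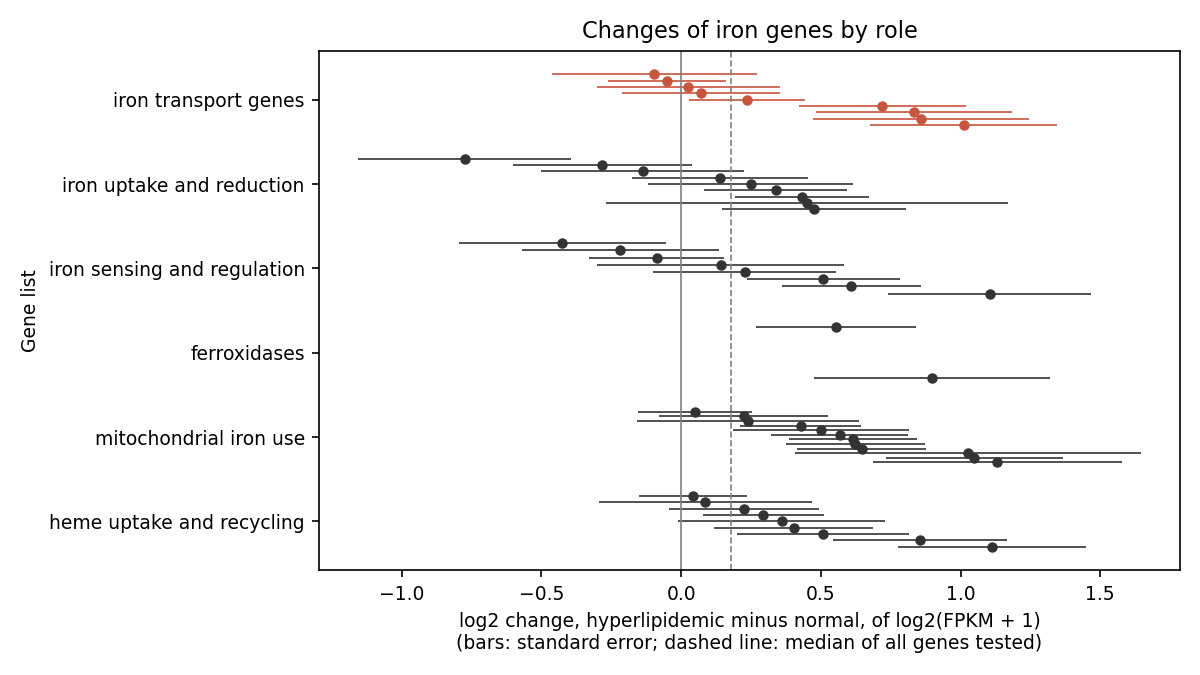
Log2 change of each tested iron gene by list, with standard errors as bars, the iron transport genes in red and a dashed line at the median of all genes (0.18). The mitochondrial and heme lists lie wholly above 0 on this scale, while 1 gene of each turned below 0 under median-of-ratios scaling, and no gene in the plot passed the test.

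A locus named after the ferritin light chain, which is not Ftl1 and not in the family as chosen, was also described. Ftl1l1, a ferritin light chain 1-like gene singled out after its values were seen, occupies 552 bp at chrX:139475655-139476206. Its FPKM were 33.9, 21.0, 9.89 and 19.1 in normal and 5.17, 2.41, 4.20 and 6.42 in hyperlipidemic libraries. All normal libraries exceeded all hyperlipidemic ones, as for 3.75% of all genes, and the mean was 4.61 times lower in the hyperlipidemic group. The log2 change was -1.92 (SE 0.37) and passed the test (limma adjusted p = 0.0336). It lost the call when any of normal replicates 2 and 4 or the hyperlipidemic replicates was left out (adjusted p up to 0.115), with no filter on low values (0.112) and with the library term described below (0.129).

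The part of locus length in this value was not tested. Of 1850 tested loci of at most 1000 bp, 1086 (58.7%) had log2 changes below 0, against 31.3% of longer loci, and 158 of the 171 genes called lower were among them. Ferritin light chain sequences have near-identical copies, so the reads behind this locus are uncertain. Its 5′ leader in RefSeq (GRCr8, chrX:136687584-136687609, minus strand) is shown because it holds CAGTG, the letters of the loop of iron-responsive elements, 43 bases after the start; they are in capitals with the base after them. This word occurs in the first 50 bases of 7.39% of 33469 entries.
Ftl1l1: atctgtatcttgcttcaaCAGTGTtt

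The circles of Tf came from a table in which every circRNA was above 0 in at least 3 libraries, and 206 of 774, including 2 of Tf, were at that minimum. The table names a circle by a serial number and its host, and gives no ends, so no back-splice position or junction sequence can be shown. The 31 circles of Tf carry numbers between 15129 and 15178, with no other host's circles among them. Libraries differed widely in how many circRNAs they held: of circles of other hosts, 13.9%, 66.2%, 22.7% and 15.1% were above 0 in normal libraries 1 to 4 and 93.3%, 95.3%, 54.1% and 73.2% in hyperlipidemic ones. Normal replicate 2 therefore stood apart from its group in this table.

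The Tf circles ranked the libraries in nearly the same order. Of 31, there were 4, 29, 15 and 8 above 0 in normal libraries 1 to 4 and 31, 31, 22 and 25 in hyperlipidemic ones. Normal replicate 2 exceeded hyperlipidemic replicates 3 and 4, so the groups overlapped. In all, 28 circles were above 0 in more hyperlipidemic than normal libraries, 2 in equally many and 1 in more normal libraries, 17 were above 0 in all hyperlipidemic libraries and 1 in all normal ones.

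**Figure D3:**
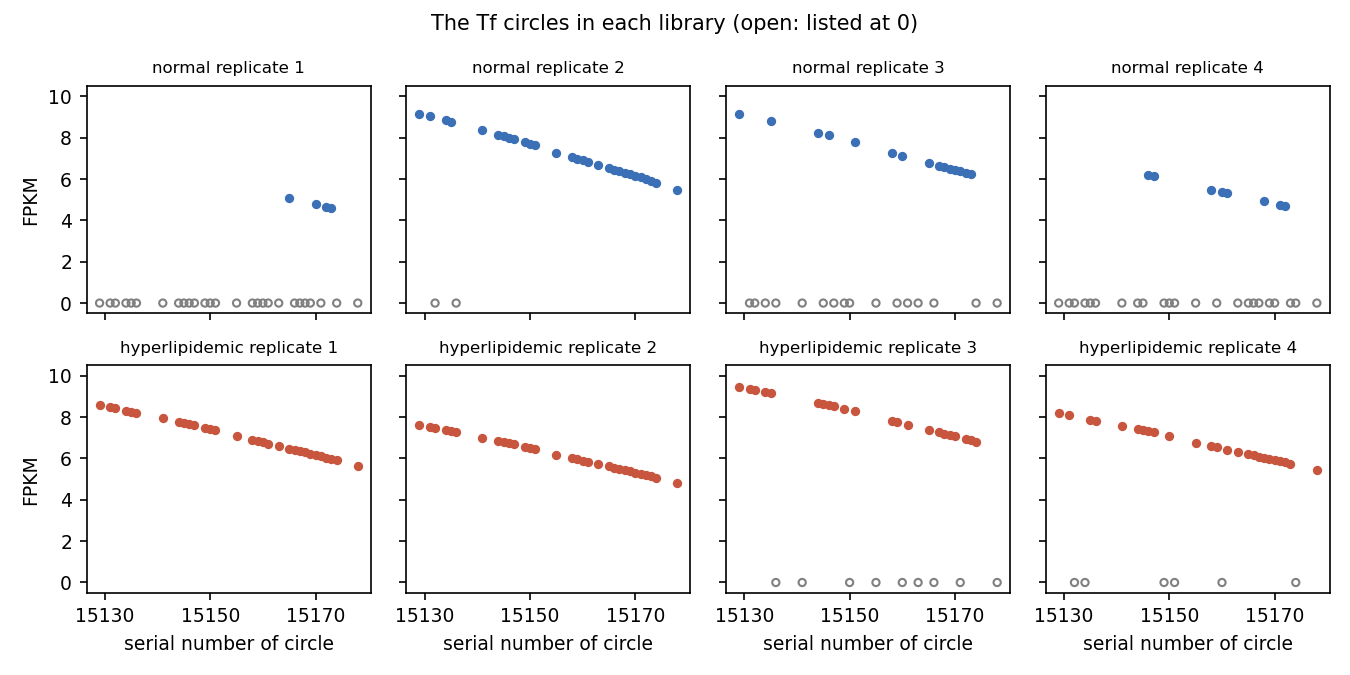
FPKM of the 31 Tf circles against their serial number in each library, with open symbols at 0. Values above 0 form a single falling line in every library, between 4.60 and 9.48 FPKM, and libraries differ mainly in how many circles lie on the line.

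Circles that were above 0 had values that depended on their serial number. Within every library the values above 0 fell strictly from the lowest serial number to the highest, in 157 of 157 steps between neighbours, and the reciprocal of FPKM was close to a straight line in serial number (Pearson r = 0.988 to 0.999). Values ran from 4.60 to 5.06 FPKM in normal replicate 1, which had the fewest circles, and from 6.82 to 9.48 in hyperlipidemic replicate 3, which had the highest. Relative to hyperlipidemic replicate 1, the median ratio over shared circles was 0.772, 1.02, 1.05 and 0.793 in normal libraries and 0.872, 1.13 and 0.957 in hyperlipidemic replicates 2 to 4. These ratios overlapped between the groups.

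This order was not particular to Tf. Among hosts with at least 10 circles, Hemgn, Syk and Tprg1l also fell strictly in every library with at least 3 circles, Trak2 in 7 of 8, Epb41 in 4 of 8, Mcpt8l3 in 2 of 8, Usp32 in 2 of 7, and Ighm and Cd177 in none.

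Circle 15172 was the only one of Tf above 0 in all 8 libraries. It was at 4.66, 5.998, 6.30 and 4.70 FPKM in normal and 6.04, 5.20, 6.95 and 5.81 FPKM in hyperlipidemic libraries, so the groups overlapped, and its log2 change was 0.15 (SE 0.91). At the other end, circles 15132 and 15136 were listed at 0 in all normal libraries and fell under the filter. Circle 15160 ran the other way, with 0, 6.91, 7.12 and 5.38 FPKM in normal and 6.78, 5.90, 0 and 0 FPKM in hyperlipidemic libraries (log2 change -1.52).

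Tests on circles used log2(FPKM + 0.1) in limma over the 568 circRNAs above 0 in at least 4 libraries, so values at 0 carry much of each difference. Of the 29 Tf circles tested, 28 had log2 changes above 0 and 1 below, against 91.2% above 0 for all circRNAs and 90.9% of those of other hosts. None was called, while 2.46% of all circRNAs were called higher and 0.00% lower. The median was 2.96 for Tf circles and 1.15 for all circRNAs, but a 0 weighs more the higher a circle's other values are. Tf circles were 4.01% of circRNAs and held 23.3% to 36.4% of circRNA FPKM per library. The medians therefore do not show a stronger difference for Tf circles than for others. Circles 15131, 15145 and 15159 had the lowest adjusted p-values of the Tf circles (0.165 each), with log2 changes of 4.77, 4.68 and 4.56. These 3 were above 0 in all hyperlipidemic libraries and, of the normal libraries, in replicate 2 alone. Leaving out that replicate put all 3 past the threshold and raised the calls from 14 to 92 circRNAs, but these 3 then stood against normal values all listed at 0 and passed the filter only through the hyperlipidemic libraries, so their calls are no evidence of a difference. The 14 calls were themselves unstable, since 0 or 1 circRNA was called when any other single library was left out.

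The summed FPKM of Tf circles was 19.1, 209, 108 and 42.9 in normal and 220, 192, 178 and 168 in hyperlipidemic libraries. Normal replicate 2 was the second highest of the 8. The difference of mean log2 sums was 1.52 (two-sided exact permutation test, p = 0.114, 0.171 after adjustment over 3 library measures), and it reached the smallest p of the smaller design, 0.0286, without normal replicate 2. Relative to the FPKM of the Tf gene, the sum was 4.01%, 40.9%, 29.6% and 12.1% in normal and 51.2%, 46.2%, 46.5% and 41.8% in hyperlipidemic libraries. How circle FPKM were scaled is not given, so these ratios are not the circular share of Tf transcripts.

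These ratios did not overlap, although hyperlipidemic replicate 4 exceeded normal replicate 2 by less than 1 percentage point. The difference in mean log2 ratio was 1.57 with p = 0.0286, the smallest that 4 against 4 libraries allow (two-sided exact permutation test), and 0.0857 after adjustment. Leaving out any of the hyperlipidemic libraries raised p to between 0.143 and 0.171. As a share of the FPKM of all circRNAs, Tf circles made up 23.3%, 36.4%, 35.3% and 24.2% in normal and 26.1%, 30.7%, 32.8% and 25.7% in hyperlipidemic libraries. By this measure normal replicates 2 and 3 were highest and the groups overlapped.

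**Figure D4:**
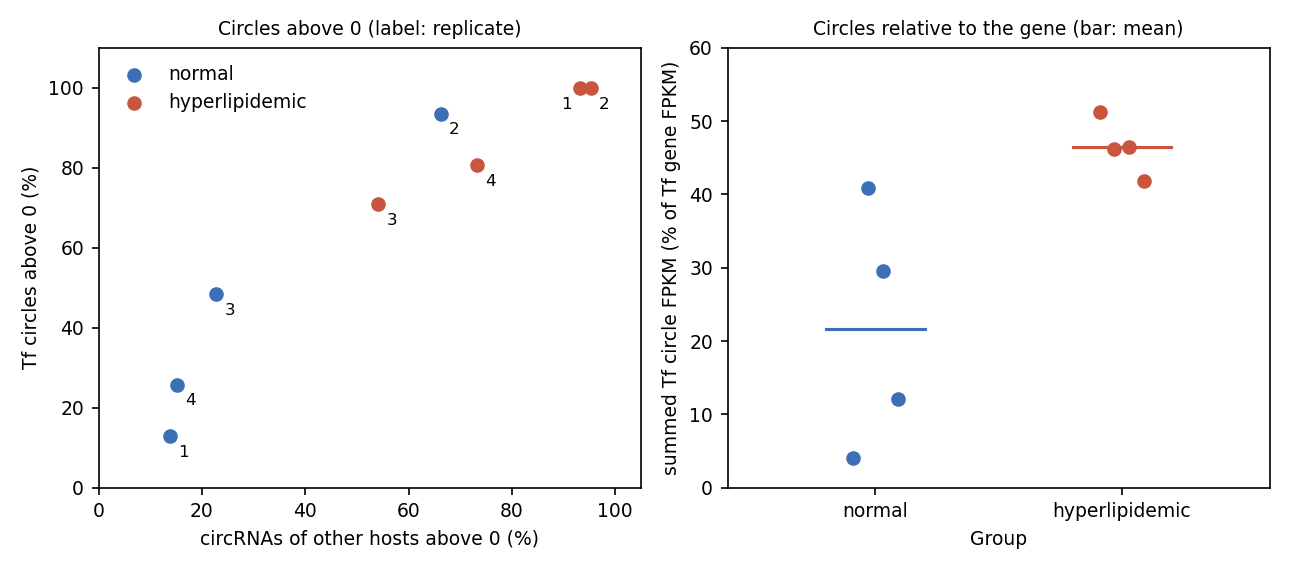
Left, the percentage of Tf circles above 0 against that of circRNAs of other hosts, 1 point per library labelled by replicate; right, summed Tf circle FPKM as a percentage of Tf gene FPKM with bars at group means. Normal replicate 2 lies with the hyperlipidemic libraries on the left and just under them on the right (40.9% against 41.8%).

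Of the other iron genes, Slc25a37 had a circle. It was at 0, 0.795, 0 and 0 FPKM in normal and 1.93, 1.35, 0 and 2.49 FPKM in hyperlipidemic libraries, with 1 detected normal library and 1 undetected hyperlipidemic one. Its log2 change was 2.43 (SE 1.18, limma adjusted p = 0.281).

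The authors' deposited table gives its own comparison, whose direction departs from the mean FPKM for most Tf circles. Their fold change and p-value were recovered within 1e-06 for 19120 of 19120 genes and 774 of 774 circRNAs by a linear model of log2(FPKM + 1) on group and a library term, the sum of a library's log2 values above 0 and below their 75th percentile; without that term the formula matched 0 of them. For circRNAs the library term was 33.2, 166, 79.4 and 41.8 in normal and 283, 190, 179 and 205 in hyperlipidemic libraries, so it did not overlap between groups and cannot be told apart from diet. For genes it overlapped, from 17407 to 20747.

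Mean FPKM was higher in the hyperlipidemic group for 30 of 31 Tf circles, but the fold change in the authors' deposited table was below 1 for 24, of which 23 had the higher mean. The authors' deposited table marks 9 Tf circles as down, 8 of them with the higher mean, and 2 as up (15132 and 15136), with no q-value under 0.820. When the library term was added to the limma fit, a choice made after seeing the data, 5 of 29 Tf circles had log2 changes above 0 and 24 below, and none was called. The Slc25a37 circle turned likewise, to a fold change of 0.950 in the authors' deposited table.

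For the 9 iron genes the direction in the authors' deposited table was that of the plain difference for all 9. Tfr2 alone had a p under 0.05 there (0.0415), and no q-value was under 0.840.

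**Figure D5:**
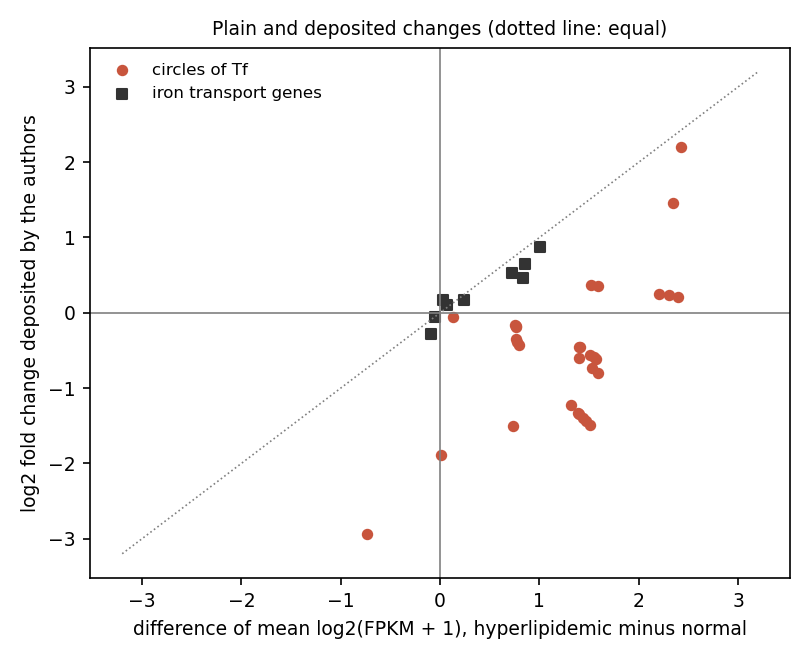
Log2 fold change in the authors' deposited table against the plain difference of mean log2(FPKM + 1), for Tf circles (red circles) and iron genes (black squares), with a dotted line where they are equal. The genes lie near the line, whereas most circles lie right of 0 on the plain axis and below 0 on the deposited one.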

How the data were processed

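RNA of 8 libraries, 4 normal and 4 hyperlipidemic, was analysed from deposited values. The authors deposited FPKM values per gene and per circRNA in each library, and tables of fold change, its log2 value, p-value and q-value of their own comparison. The submitters' processing notes name build Rnor_6.0, StringTie 1.3.3b, HISAT2 2.1.0 and bcl2fastq 1.8.4, with no order, and the sources used here do not name an annotation or a circRNA caller. No counts entered, and depth is unknown, so no counting error could be given, and an FPKM listed at 0 may be a failed estimate.

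FPKM were taken to log2 after adding 1 (genes, mean of at least 0.5) or 0.1 (circRNAs, above 0 in at least 4 libraries) and fitted over the whole table with limma 3.58.1 in R 4.3.3, with a trend in the prior variance and Benjamini-Hochberg adjustment, after a check on simulated data. Ratios and sums per library were compared by exact permutation with Python 3.11.15 and scipy 1.17.1. The ratio of Fth1 to Ftl1 was planned and not run, since Ftl1 was not analysed here. Alternatives changed the pseudocount, filter, scaling, variance trend, replicate block and, with libraries left out in turn, the samples.

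The text names all iron genes and Tf circles, the 2 genes of smallest p in each pathway list, and the 5 genes most like Tf and Tfrc in Pearson r; some items under this rule are not reported here. Genes, lists and tests were chosen with earlier results of these data known. Promoters were searched in a RefSeq table of GRCr8.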

Additional observations from a re-analysis of the deposited data

How the results depend on the processing

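Scaling moved the median log2 change of all genes from 0.18 to 0.053, and signs of iron genes near 0 turned with it: Slc11a2 to -0.13 under median-of-ratios scaling and -0.037 under quantile normalization, Steap3 to -0.076 and -0.023, and Tf to 0.12 under quantile normalization. Without single libraries Tf ranged from -0.13 to 0.043, Slc11a1 from -0.40 to 0.088, Slc11a2 from -0.21 to 0.22, Steap3 from -0.091 to 0.22, and the Tfrc to Tfr2 difference from -0.043 to 0.54.

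Genes called numbered 191. They were 107 with no filter (8 higher, 99 lower) and 104 with the library term (2 higher, 102 lower); genes called higher were 35 under quantile normalization and 4 with a replicate block. Without single libraries the totals ran from 113 to 230 (5 to 47 higher, 107 to 205 lower), iron genes called from 0 to 1 and iron genes above 0 from 5 to 8.

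Of circRNAs, 14 were called. This became 0 at a pseudocount of 1, 0 with a replicate block, 0 with the library term, and 221 (218 higher, 3 lower) with no filter or when 2 libraries above 0 were enough, with 5 Tf circles among them, each listed at 0 in at least 3 normal libraries, so these calls rest on circles present almost only where they are high. Without single libraries it ranged from 0 to 92 (lower 0), and Tf circles called from 0 to 3. Tf circles above 0 ran from 18 (without hyperlipidemic replicate 1 or 2) to 28. The filter was applied again to the remaining libraries, so circles above 0 in only 4 libraries left the test when one of those was dropped. The 18 are therefore out of fewer than 29 circles, whereas the library term left 5 of 29 above 0. Circle 15172 turned to -0.016 under median-of-ratios scaling and -0.067 with the library term, and the Slc25a37 circle to -0.87 with that term. Without single libraries the log2 difference of the Tf circle sum ran from 0.93 to 2.08 and of its ratio to the gene from 0.92 to 2.03. The causes were not tested.

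Same-numbered libraries correlated by 0.011 to 0.129 in deviations from group means, and only replicate 2 exceeded the limit of 0.1 used for this check. The same-numbered library was the best partner for replicates 1 and 2 but not for 3 and 4. The main fits did not take the numbers as pairs. With a replicate block no iron gene was called, and the ratio of Tf circles to the gene (1.57) had p = 0.125 by exact sign flips of the paired differences, the smallest p that 4 pairs allow, so this test could not pass the threshold. Depth is unknown, so how much of a value at 0 it sets cannot be stated.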
